A study of Mus musculus with 2 samples.

Results

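The 39 mouse Hox genes were followed across the cell types of the newborn kidney in single-cell RNA sequencing data. The members are the rows of the deposited gene table, 39 of 32285, whose symbol is Hox followed by the letter a, b, c or d and a number, without the antisense and other noncoding transcripts of the same loci. They lie in 4 clusters and 13 paralogue groups: 11 HoxA, 10 HoxB, 9 HoxC and 9 HoxD genes. The data are 2 libraries of whole P0 kidney (postnatal day 0), both labelled Rbpj c/+ ; Foxd1cre/+, so every barcode comes from that genotype and the libraries form 1 group with n = 2. Rbpj encodes the DNA-binding factor of Notch signalling, and Foxd1cre drives the Cre recombinase from the Foxd1 locus, which is active in the progenitors of the kidney stroma. Recombination of Rbpj may thus differ between cells of the stromal lineage and other cells, and it was not tested. In comparisons of the stroma and its descendants with other cell types, its part cannot be told apart from cell type. No other genotype was analysed here, and each comparison is between cell types within the same kidneys.

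Hox genes encode homeodomain transcription factors. In mammals they sit in clusters on separate chromosomes, and genes at the same place in different clusters (a paralogue group, which shares a number) descend from a common ancestor and resemble each other most in their protein. Genes with low numbers are usually active from the head end of the embryo and those with high numbers towards the tail end. In the kidney, Hox11 genes (Hoxa11, Hoxc11 and Hoxd11) are required for the outgrowth of the ureteric bud, and Hox10 genes for the kidney stroma. Hoxb7 is known in kidney research for the transgene promoter that labels the ureteric bud, the epithelium that branches from tip to trunk and forms the collecting ducts.

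The clusters are on GRCm38: HoxA on chromosome 6 from 52155590 to 52260880 on the minus strand, HoxB on chromosome 11 from 96194316 to 96368256, HoxC on chromosome 15 from 102921103 to 103036852, and HoxD on chromosome 2 from 74668310 to 74765142, the last 3 on the plus strand. The promoters of 5 members of paralogue group 4 (Hoxb4, Hoxc4, Hoxd4) and group 8 (Hoxb8, Hoxd8) are shown. They were chosen because Hoxc4 differed from Hoxb4 and Hoxd4, and Hoxb8 from Hoxd8, in the kidney cell type where it was highest. Each is a RefSeq window of 300 bases on the plus strand of GRCm38.p6, mostly upstream of the start of transcription, with CG dinucleotides in capitals. The windows are chr11:96318017-96318316 for Hoxb4, chr15:103034145-103034444 for Hoxc4, chr2:74721728-74722027 for Hoxd4, chr11:96281655-96281954 for Hoxb8 and chr2:74704365-74704664 for Hoxd8.
Hoxb4: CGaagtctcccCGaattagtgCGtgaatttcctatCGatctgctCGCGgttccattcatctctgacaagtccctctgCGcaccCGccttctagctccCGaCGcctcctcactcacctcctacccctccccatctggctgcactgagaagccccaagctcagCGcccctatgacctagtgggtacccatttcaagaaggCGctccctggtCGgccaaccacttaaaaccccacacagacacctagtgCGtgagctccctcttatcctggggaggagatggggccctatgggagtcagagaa
Hoxc4: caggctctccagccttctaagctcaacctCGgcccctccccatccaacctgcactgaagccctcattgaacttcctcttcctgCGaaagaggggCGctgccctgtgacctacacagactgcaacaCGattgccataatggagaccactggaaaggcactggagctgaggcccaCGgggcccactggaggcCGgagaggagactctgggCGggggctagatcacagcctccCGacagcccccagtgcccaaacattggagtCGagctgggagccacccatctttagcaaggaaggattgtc
Hoxd4: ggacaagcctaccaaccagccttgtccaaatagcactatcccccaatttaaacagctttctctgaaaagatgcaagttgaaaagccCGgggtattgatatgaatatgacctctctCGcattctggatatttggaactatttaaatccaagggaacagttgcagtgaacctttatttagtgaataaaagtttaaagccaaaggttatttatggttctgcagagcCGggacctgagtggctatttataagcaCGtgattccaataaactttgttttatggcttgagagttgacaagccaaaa
Hoxb8: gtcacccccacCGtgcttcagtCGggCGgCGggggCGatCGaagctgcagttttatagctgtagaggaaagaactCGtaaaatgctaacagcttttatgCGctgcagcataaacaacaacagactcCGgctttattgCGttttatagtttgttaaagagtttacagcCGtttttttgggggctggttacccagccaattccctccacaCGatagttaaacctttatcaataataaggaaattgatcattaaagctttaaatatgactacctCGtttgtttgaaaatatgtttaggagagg
Hoxd8: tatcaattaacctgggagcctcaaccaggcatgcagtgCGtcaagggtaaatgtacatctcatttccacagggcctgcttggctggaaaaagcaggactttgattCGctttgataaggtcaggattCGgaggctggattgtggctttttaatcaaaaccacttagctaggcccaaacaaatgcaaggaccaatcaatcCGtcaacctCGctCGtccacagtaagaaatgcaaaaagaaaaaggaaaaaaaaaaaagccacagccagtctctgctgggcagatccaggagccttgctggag
The windows held 14 CG dinucleotides in Hoxb4, 9 in Hoxc4, 4 in Hoxd4, 13 in Hoxb8 and 6 in Hoxd8. The median over the 24 windows found for 22 members was 14.5, against 7 over all 32851 windows of the table. TTTATNG, a form of the site that posterior Hox proteins of the Abd-B class bind, was searched on both strands. It matched 3 times in Hoxd4 and 3 times in Hoxb8, and occurred in 8.33% of the member windows and in 10.9% of all windows. TGATTNAT, a form of the joint Pbx and Hox site, occurred in 8.33% of member windows and 3.22% of all windows, and in none of the 5 shown. These matches describe the letters of the windows only.

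The deposited values are counts of unique molecular identifiers (UMIs, 1 per captured transcript) read from the 3′ end, so they are not divided by transcript length. A barcode was kept when it had 3000 or more UMIs from 500 or more genes, with mitochondrial UMIs no more than 20%, which left 5529 in replicate 1 and 4206 in replicate 2, with medians of 15016 and 20007.5 UMIs. The libraries share 6 of the kept barcodes. Barcodes were placed in gates by fixed marker genes, and a gate is named after the cell type its markers define: 16 gates held at least 20 barcodes in each library, from 32 to 709. In the early nephron 2 of 5 markers were higher than in every other gate in both libraries, and in each of the other gates all markers, or all but 1, were. The Foxd1, Penk and other stroma gates share their markers, so each was compared only with the gates outside the stroma. Nothing in the labels says that the libraries come from separate animals, so the spread between these 2 libraries may be technical. For each gene, the fit removed a shift common to all gates of a library. The p-values rest on the spread that remained, estimated over all gates of the fit and not only the 2 compared. Levels are UMIs per 1000000 UMIs of a gate (CPM), always given as replicate 1 and then replicate 2. Tests used edgeR's quasi-likelihood fit on counts summed per gate and library with library as a block, and a gene was called at a Benjamini-Hochberg adjusted p under 0.05 over 16549 genes.

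Of the 39 members, 31 passed the low-count filter, and 8 did not, among them Hoxb13, Hoxc12 and Hoxd1. The 31 had between 415 and 23374 UMIs over the gates, and the 8 had at most 89. Hoxb13 had no UMI in any kept barcode, and Hoxc12 had 1. Hoxd1, with 89 UMIs, was the most abundant of the 8. It was highest in the ureteric lineage, at 2.03 and 4.03 CPM in the collecting duct and 2.16 and 2.25 CPM in the ureteric tip, with 0.588 and 1.28 CPM in the early nephron.

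Every gate of kidney epithelium and stroma held Hox transcripts, and the summed level ranged widely. The sum over all members was highest in the nephron progenitors, at 2737 and 2684 CPM, followed by the ureteric tip at 2531 and 2554 CPM. The distal tubule had 2419 and 1852 CPM and the loop of Henle 2038 and 1610.3 CPM. The libraries of these last 2 gates and of the collecting duct, at 1978 and 1835 CPM, overlapped, so their order is not separated by the spread between libraries. Levels were lower in the proximal tubule, 726 and 607 CPM, and the endothelium, 511 and 460.2 CPM.
The macrophages, a blood-derived type used as the background, had 120.0 and 146 CPM. Free RNA, measured in barcodes with fewer than 100 UMIs, had 933 and 1048 CPM, a higher level than in the proximal tubule, endothelium or macrophages. Its part in the counts of the gates was not tested. The erythroid gate differed between libraries, at 741 and 172 CPM, and its level is not read further. It stays among the 16 gates of the fit, of the figures by gate and of the correlations across gates.

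**Figure D1:**
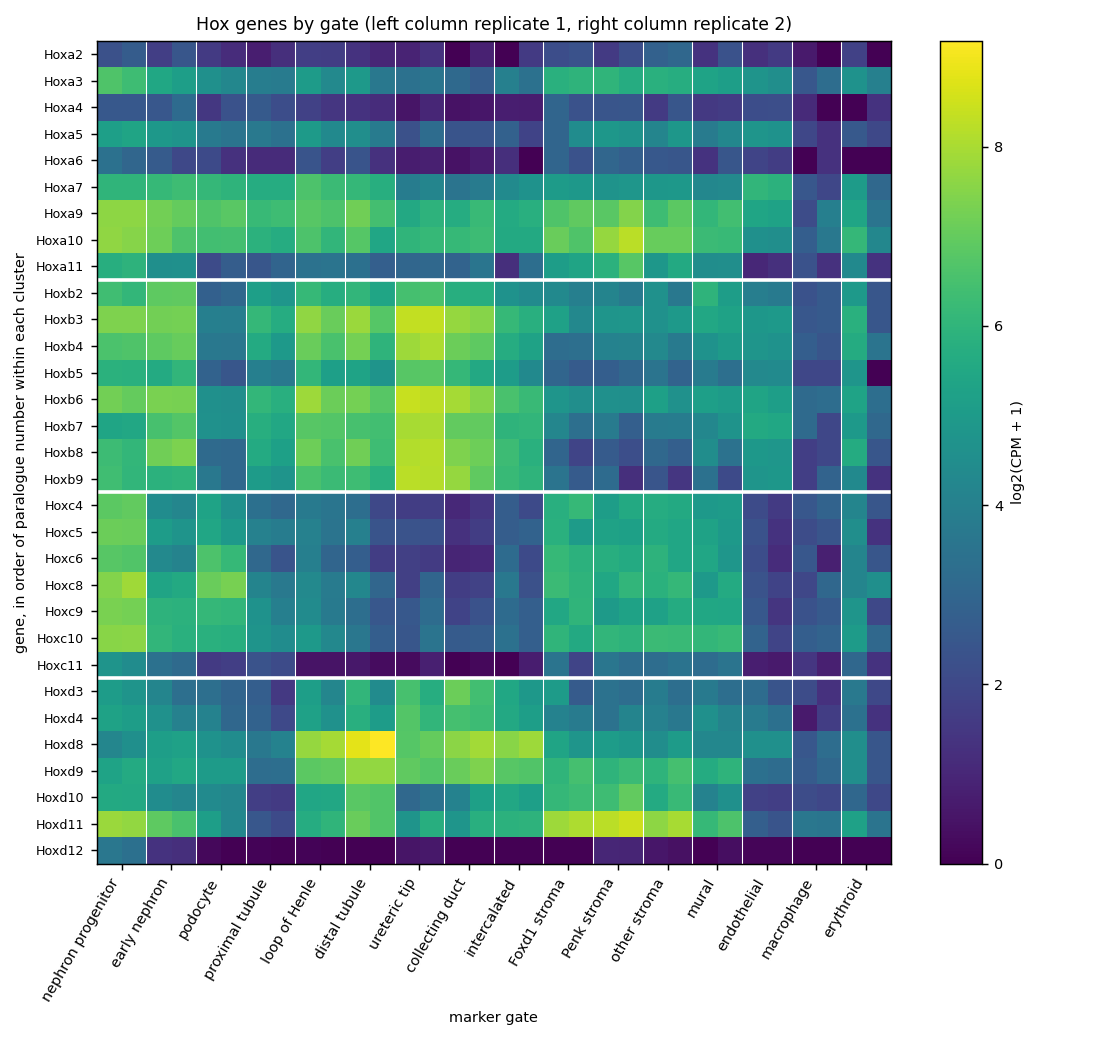
Level of each of the 31 tested Hox genes, as log2(CPM + 1) by colour, in the 16 marker gates, with replicate 1 on the left and replicate 2 on the right of each gate and white lines between the clusters. All 8 HoxB genes except Hoxb2, which is highest in the early nephron, are brightest in the ureteric tip, the 7 HoxC genes in the nephron progenitors, and Hoxd8 in the distal tubule at 445 and 579 CPM.

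The 4 clusters took very different shares of this sum. HoxB made up 75.3% and 75.4% of Hox UMIs in the ureteric tip and 61.6% and 52.7% in the collecting duct, but 8.23% and 5.67% in the Penk stroma. HoxC made up 44.9% and 44.4% in the podocytes and 33.2% and 35.9% in the nephron progenitors, but 0.681% and 0.938% in the collecting duct. HoxD made up 42.1% and 56.3% in the distal tubule, and HoxA 36.6% and 40.9% in the Penk stroma. The cell types differed in which cluster their Hox transcripts came from as well as in the sum.

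**Figure D2:**
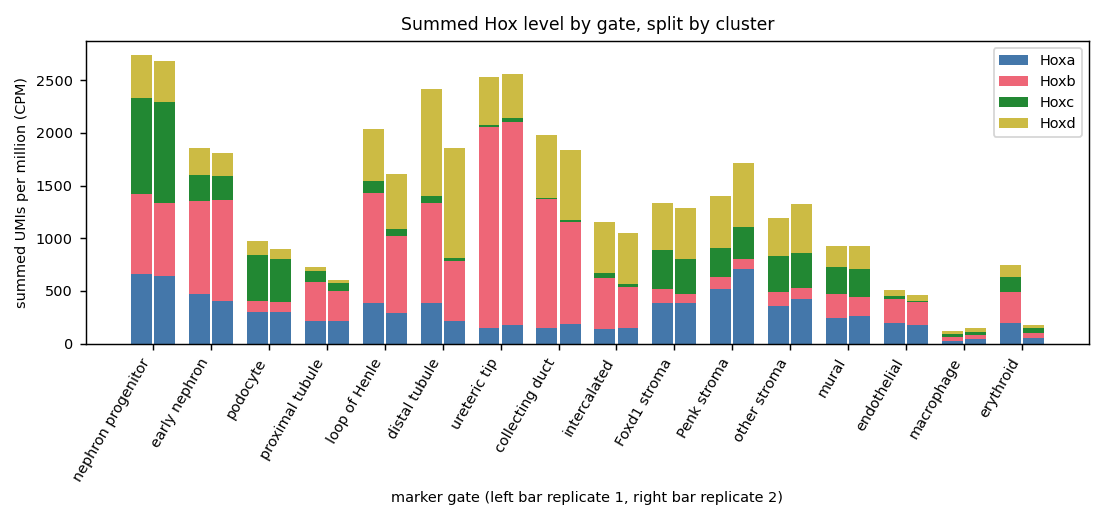
Summed CPM of the members of each cluster, stacked, in each of 16 gates, with the left bar for replicate 1 and the right bar for replicate 2. HoxB fills most of the ureteric tip bars (1906 and 1925 CPM), HoxC is nearly absent from the tip and collecting duct bars, and HoxD is largest in the distal tubule (1018 and 1043 CPM).

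Of 31 tested members, 27 had the same highest gate in both libraries, and 24 had both libraries of that gate above both of the second. HoxB genes were mostly highest in the ureteric epithelium. Of 8 tested HoxB genes, 7 were highest in the ureteric tip in both libraries, with both libraries above both of the next gate, and Hoxb2 was highest in the early nephron. Hoxb7 reached 251 and 258 CPM in the tip and 123 and 126 CPM in the collecting duct, against 41.5 and 44.3 CPM in the nephron progenitors and 13 and 5.92 CPM in the Penk stroma. Both tip libraries lie above the collecting duct, and both of those above the progenitors and stroma. Hoxb9, the last gene of the main HoxB array, had 302 and 285 CPM in the tip, 211 and 122 CPM in the collecting duct and 81.9 and 65.4 CPM in the progenitors. Hoxb9 varied more between the 2 collecting duct libraries than Hoxb7 did. Hoxb3 and Hoxb6 had the highest levels in the tip, at 320.0 and 320.1 CPM and 335 and 304 CPM. Hoxb2, at the low end, had 119 and 122 CPM in the early nephron, 87.5 and 91.5 CPM in the tip and 6.02 and 7.28 CPM in podocytes.
Of the group 4 and group 8 paralogues whose promoters are shown above, Hoxc4 differed in place from Hoxb4 and Hoxd4, and Hoxb8 from Hoxd8. Hoxb4 had 225 and 261 CPM in the ureteric tip and 95.9 and 99.8 CPM in the progenitors. Hoxc4 had 2.16 and 2.25 CPM and 115 and 125 CPM in the same gates, and Hoxd4 104 and 65.5 CPM and 37.7 and 33.8 CPM. Only Hoxc4 of these was lower in the tip than in the progenitors, in both libraries. Hoxb8 had 275 and 290.4 CPM in the tip and 146 and 78.8 CPM in the distal tubule, and Hoxd8 107 and 128 CPM and 445 and 579 CPM, the reverse order in both libraries.

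In the collecting duct against the nephron progenitors, which sets the bud-derived epithelium against the mesenchyme that makes the nephron, 28 of 31 members were called, 8 higher and 20 lower. Of all genes tested, 25.7% were called higher and 24.6% lower. The median log2 difference of the members was -2.42, against -0.03 over all genes. The clusters moved differently: all 9 HoxA and all 7 HoxC genes fell, 4 of 8 HoxB genes rose and 1 fell, and 4 of 7 HoxD genes rose and 3 fell. Within HoxB the genes that rose were those with high numbers: Hoxb6 by 0.61 ± 0.13 (log2, SE), Hoxb7 by 1.53 ± 0.18 (adjusted p = 2.4e-07), Hoxb8 by 1.09 ± 0.20 and Hoxb9 by 1.14 ± 0.24. Hoxb2 fell, with -0.51 ± 0.19 (adjusted p = 0.029), and was not called without TMM factors (0.081), with no replicate block (0.098), by DESeq2 (0.086), at 10000 UMIs per barcode (0.058) or with the looser gate (0.16), where each value is the adjusted p. Hoxb3, Hoxb4 and Hoxb5 were not called, with 0.21 ± 0.20, 0.36 ± 0.21 and -0.01 ± 0.24.

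Between the ureteric tip, the branching end of the bud, and the collecting duct, 13 of 31 members were called, 9 higher and 4 lower in the tip. Among all genes, 14.7% were higher and 15.7% lower, and the members' median log2 difference was 0.54 against -0.03. All 8 tested HoxB genes rose in the tip, by between 0.51 and 0.95 on the log2 scale. Hoxb7 had the smallest adjusted p of them, 2.5e-04, at 0.95 ± 0.18. Hoxd10, Hoxd8, Hoxd3 and Hoxd9 fell. Hoxd10 had 7.55 and 10.0 CPM in the tip and 15.7 and 36.3 CPM in the collecting duct (-1.65 ± 0.29, adjusted p = 1.6e-04), and Hoxd8 had 107 and 128 CPM and 189.8 and 239.8 CPM (-0.95 ± 0.17). The ninth higher call, Hoxd12, rests on 2 UMIs in each tip library and 0 in the collecting duct. No HoxA or HoxC gene was called. With no replicate block 7 of the members were called, 5 higher and 2 lower, in place of 13.

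HoxC genes were highest elsewhere. All 7 tested HoxC genes were highest in the nephron progenitors, the self-renewing cap mesenchyme, with both libraries above both of the next of the 16 gates. Hoxc8 had 175 and 234 CPM there, 135 and 155 CPM in podocytes and 57.7 and 69.1 CPM in the other stroma, but 2.21 and 2.48 CPM in the collecting duct. Hoxc10 had 185 and 193 CPM in the progenitors, 66.3 and 71.2 CPM in the mural gate and 5.17 and 5.58 CPM in the collecting duct. The progenitor, podocyte and stromal libraries all lie above the collecting duct.
In the collecting duct comparison above, 6 HoxC genes, from Hoxc4 to Hoxc10, fell by between 5.14 and 6.70 on the log2 scale, and Hoxc11 had 0 and 1 UMIs in the collecting duct, at 26.1 and 21.2 CPM in the progenitors. Hoxc6 changed by -6.70 ± 0.33 (adjusted p = 3.1e-13). The summed HoxC level was 13.5 and 17.2 CPM in the collecting duct and 26.7 and 12.2 CPM in the endothelium, and 26.9 and 31.4 CPM in macrophages. By this sum, collecting duct and endothelial HoxC levels were at or below the macrophage background and are not read as expression. The shares of barcodes with a HoxC UMI, given below, did not all lie below those of macrophages.

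HoxD genes differed among themselves. Hoxd8 was highest in the distal tubule, at 445 and 579 CPM, then at 213 and 248 CPM in the loop of Henle, 189.8 and 239.8 CPM in the collecting duct and 188 and 225 CPM in the intercalated cells. In the nephron progenitors it was at 17.8 and 22.7 CPM, and all 4 of those distal epithelia lay above the progenitors in every library. Hoxd9 had 206 and 207 CPM in the distal tubule and 39.5 and 47.5 CPM in the progenitors. Hoxd3 and Hoxd4 were highest in the ureteric tip and collecting duct, whose libraries overlap. Hoxd3 had 138 and 84 CPM in the collecting duct and 89.5 and 51.5 CPM in the tip.
Hoxd11 instead was highest in the Penk stroma, at 303 and 357 CPM, with 227 and 266 CPM in the Foxd1 stroma, 224 and 205 CPM in the progenitors and 26.9 and 53.9 CPM in the collecting duct. Hoxd10 had 112 and 102 CPM in the distal tubule and 79.8 and 126 CPM in the Penk stroma, which overlap. Hoxd12 was highest in the nephron progenitors, at 219 and 141 UMIs or 11.6 and 9.36 CPM, with 1.57 and 1.37 CPM in the early nephron.
In the collecting duct against the progenitors, Hoxd8 rose by 3.40 ± 0.19 (adjusted p = 1.8e-12), Hoxd3 by 1.87 ± 0.21, Hoxd9 by 1.79 ± 0.15 and Hoxd4 by 1.20 ± 0.20. Hoxd10 fell, with -0.85 ± 0.23, as did Hoxd11 with -2.43 ± 0.30. Hoxd12 had no UMI in the collecting duct, and taking 3 counts over both libraries as the limit, it was at least 42.0-fold higher in the progenitors, a bound that leaves the members' median as given. The sign of the difference changed between the neighbours Hoxd9 and Hoxd10. Exons of Hoxd3 and Hoxd4 share 388 bases on the same strand in the annotation, so their counts may not be wholly separate.

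**Figure D3:**
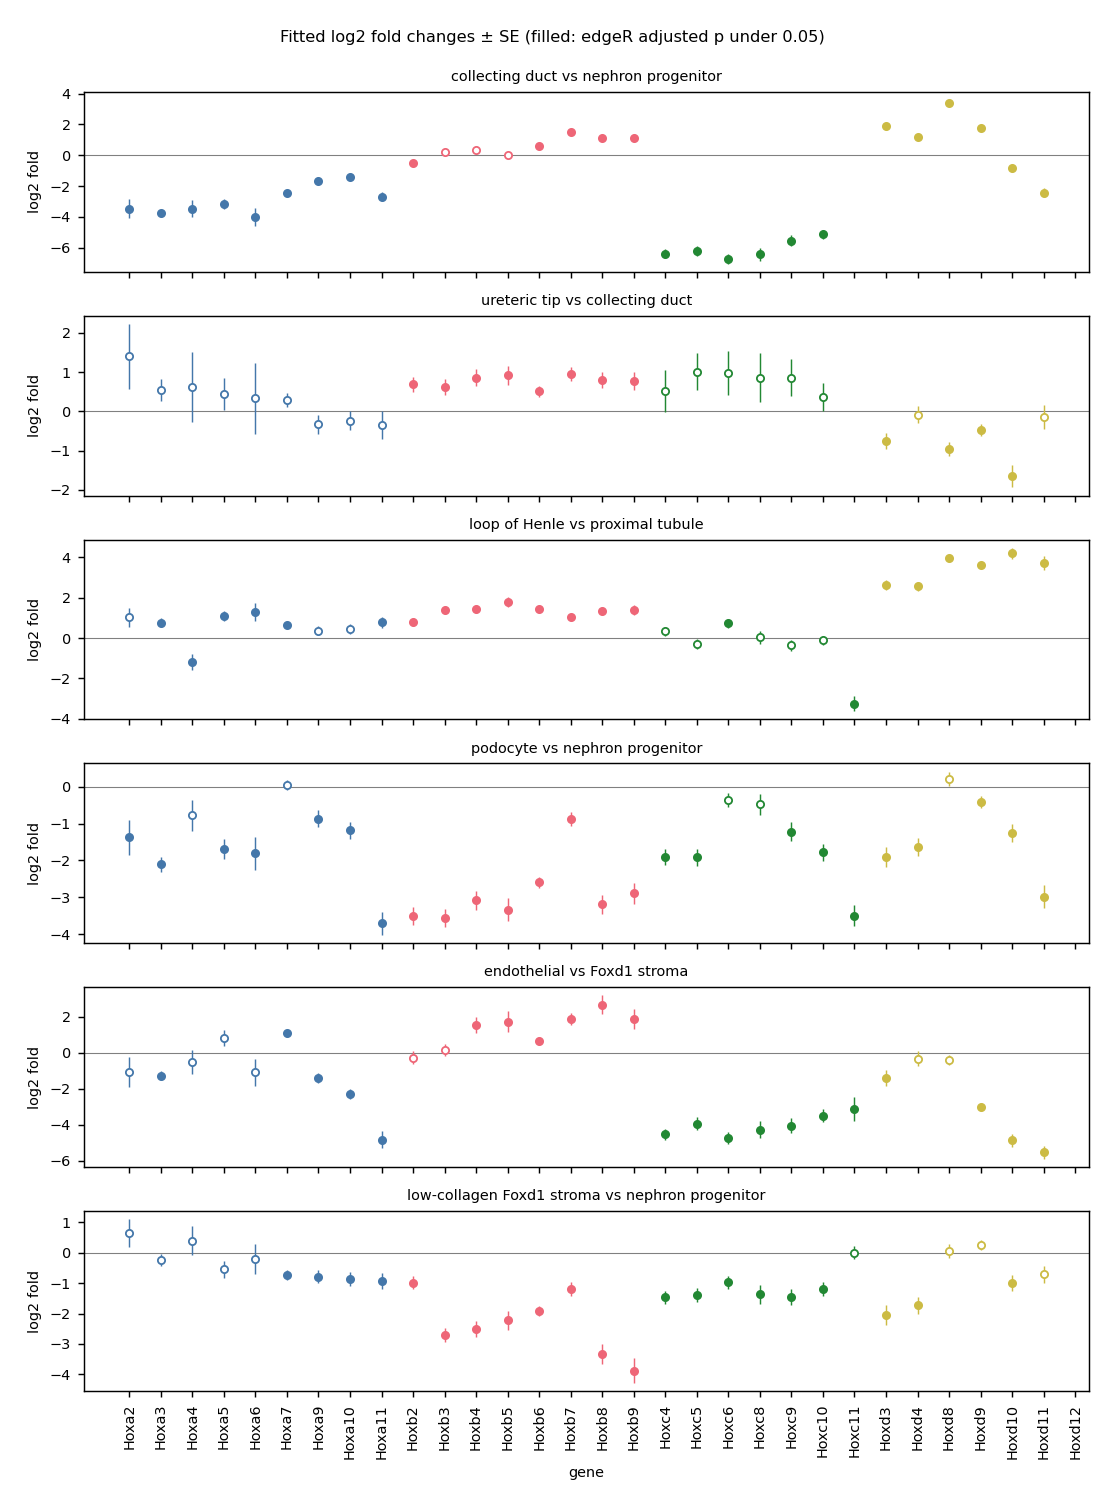
Fitted log2 fold change with SE of the tested Hox genes, ordered by number within clusters (HoxA blue, HoxB red, HoxC green, HoxD yellow), in 6 comparisons of gates, where filled points have an edgeR adjusted p under 0.05 and genes with at most 3 UMIs in a gate are left out. In the collecting duct against nephron progenitors, all HoxA and HoxC points lie below 0, and the HoxD points pass from above to below 0 after Hoxd9.

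HoxA genes were spread over mesenchyme, stroma and several epithelia, and lower in the ureteric lineage. Hoxa9 had 194 and 194 CPM in the progenitors, 112 and 177 CPM in the Penk stroma and 49.8 and 74.6 CPM in the collecting duct. Hoxa10 was highest in the Penk stroma, at 213 and 299 CPM, above the progenitors at 202 and 183 CPM, and Hoxa11 had 59.2 and 111 CPM and 53.2 and 59.6 CPM in the same gates. The Hoxa10 libraries of these gates do not overlap, and those of Hoxa11 do.
Hoxa7 followed its neighbours only in part, with a Spearman correlation across gates of 0.56 with Hoxa6 and 0.63 with Hoxa9. It had 97.3 and 75.3 CPM in the loop of Henle. The early nephron, with a mean of 74.5 CPM, was its highest gate in replicate 2, at 78.7 CPM. Podocytes had 68.1 and 61.8 CPM and the endothelium 65.7 and 58 CPM, close to the 62.6 and 63.5 CPM of the progenitors. Hoxa3, at the low end, had 98.9 and 80.2 CPM in the progenitors and 7.75 and 5.58 CPM in the collecting duct, and fell there (-3.76 ± 0.23, adjusted p = 1.0e-11). Hoxa5 had 35.7 and 39.9 CPM in the progenitors, 28.4 and 25 CPM in the Penk stroma and 4.24 and 4.19 CPM in the collecting duct. Hoxa2, Hoxa4 and Hoxa6 were low throughout: Hoxa2 was highest in the other stroma, at 6.25 and 7.29 CPM, Hoxa6 in the progenitors, at 9.75 and 7.17 CPM, and Hoxa4, at 4.64 and 8.24 CPM in the early nephron and 7.04 and 3.96 CPM in the Foxd1 stroma, had a different highest gate in each library. The smallest falls among HoxA genes in that comparison were those of Hoxa10, -1.39 ± 0.23, and Hoxa9, -1.66 ± 0.23.

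Along the nephron, Hox levels were lower in podocytes and proximal tubule than in the progenitors. In podocytes, the filtering epithelium of the glomerulus, 26 of 31 members fell and none rose, where 26.1% of all genes fell and 23.4% rose. The members' median was -1.80 against -0.04. All 8 HoxB genes fell. Hoxb3 went from 171 and 168 CPM in the progenitors to 14.4 and 14.1 CPM in podocytes (-3.57 ± 0.24, adjusted p = 5.2e-11) and Hoxb8 from 77.1 and 65.8 CPM to 8.12 and 7.53 CPM (-3.19 ± 0.25). Hoxa11 and Hoxc11 fell too, with -3.71 ± 0.32 and -3.50 ± 0.29.
The 5 members not called were Hoxa4, Hoxa7, Hoxc6, Hoxc8 and Hoxd8. Hoxc6 had 96.1 and 70 CPM in podocytes and 109.9 and 101 CPM in progenitors (-0.37 ± 0.20, adjusted p = 0.13), and Hoxc8 had -0.48 ± 0.29. The members with the highest CPM in podocytes were Hoxc8, at 135 and 155 CPM, and Hoxa9, at 100.3 and 112 CPM.

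In the proximal tubule, the segment that reabsorbs most of the filtrate, 27 of 31 members fell against the progenitors and none rose. Among all genes, 31.2% fell and 31.2% rose, with medians of -2.07 for the members and -0.05 for all genes. Hoxd11 went from 224 and 205 CPM to 4.6 and 3.15 CPM (-5.54 ± 0.35, adjusted p = 7.2e-12), Hoxd10 to 2.27 and 1.97 CPM (-4.19 ± 0.28) and Hoxc6 to 7.58 and 4.18 CPM (-3.98 ± 0.23). The macrophage levels of Hoxd10 and Hoxd11 were 3.43 and 2.92 CPM and 11.4 and 11 CPM, above those of the proximal tubule, which are not read as expression. Hoxa4, Hoxa7, Hoxb7 and Hoxd8 were not called, and Hoxb7 had 52.4 and 44.2 CPM (0.39 ± 0.18, adjusted p = 0.058). That none rose depended on the setting: Hoxb7 was called higher with DESeq2, only the 2 gates compared, 10000 UMIs per barcode, doublets removed or the looser gate, with log2 differences from 0.39 to 0.49.

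The loop of Henle, the next segment along the tubule, had more Hox RNA than the proximal tubule. Of 31 members, 20 were higher and 2 lower in the loop, where 21.1% of all genes were higher and 20% lower, and the medians were 1.03 for the members and 0.04 for all genes. HoxD showed the greatest differences: Hoxd10 rose by 4.20 ± 0.29 (adjusted p = 4.6e-11), Hoxd8 by 3.95 ± 0.20, Hoxd11 by 3.72 ± 0.34 and Hoxd9 by 3.62 ± 0.17. Hoxd10 had 42.1 and 44.4 CPM in the loop and 2.27 and 1.97 CPM in the proximal tubule. The proximal tubule levels of Hoxd10 and Hoxd11 lay below those of macrophages, as given above, so the sizes of their differences depend on the background. All 8 HoxB genes rose, by between 0.80 and 1.78. Of HoxC, Hoxc6 rose by 0.72 ± 0.24, 5 genes were not called, and Hoxc11 fell from 4.06 and 3.23 CPM to 0.387 and 0.414 CPM (-3.26 ± 0.37, adjusted p = 2.2e-07). The loop levels of Hoxc11 lay below the lowest macrophage level of any tested HoxC gene, 0.73 CPM, and are not read as expression. The size of its fall thus depends on the background. Hoxa4 also fell, with -1.19 ± 0.40.

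**Figure D4:**
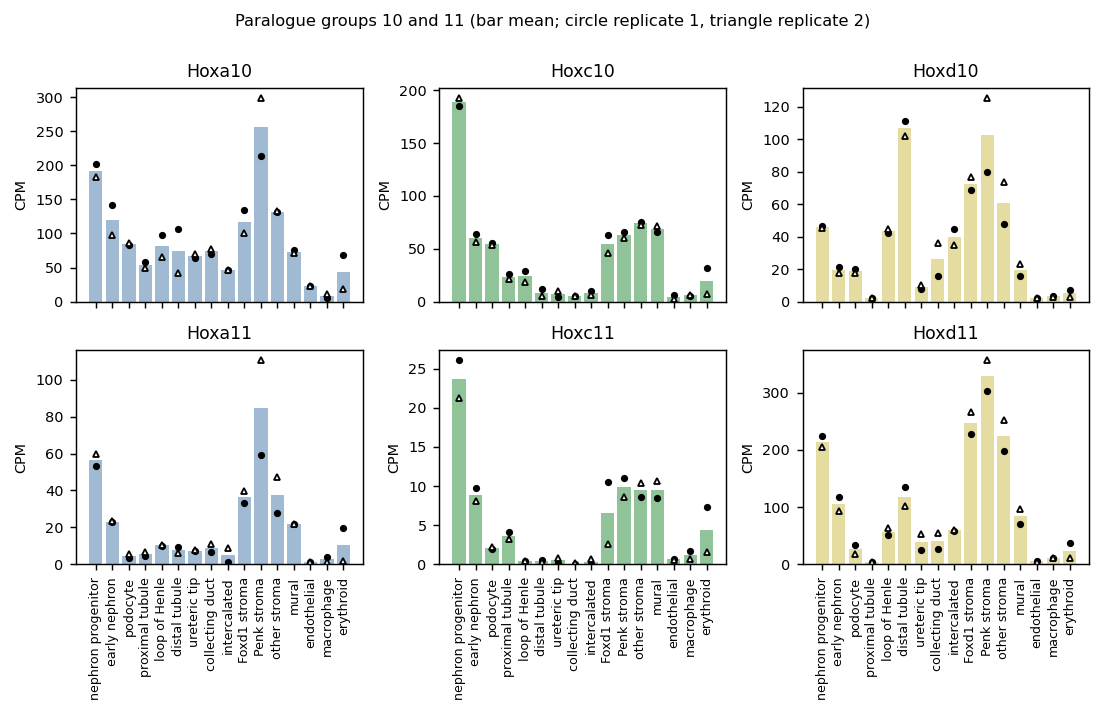
CPM of the paralogue group 10 genes (top) and group 11 genes (bottom) in the 16 gates, as the mean of 2 libraries (bar), replicate 1 (circle) and replicate 2 (triangle), with a separate axis from 0 for each gene. Hoxa10, Hoxa11 and Hoxd11 are tallest in the Penk stroma, and Hoxc10 and Hoxc11 in the nephron progenitors.

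The stroma, the interstitial cells of the kidney, was divided by Foxd1 (cortical progenitors) and Penk (a gene of the deeper interstitium). The stroma gate, whose markers include collagens, held few barcodes with Foxd1, 50 and 56. A further set, chosen after the marker levels were seen, was called low-collagen Foxd1 stroma. It took ungated barcodes with at least 2 UMIs of Foxd1 and at least 2 of Gdnf, Ntn1 and Fibin together, 92 and 153. Their marker score, described below, was under 1 for every type except stroma and mural. Neither collagen nor Penk UMIs were limited, so the name is a label only. Against the nephron progenitors, which they adjoin in the cortex, the Foxd1 stroma had 1 member higher and 21 lower of 31, with 15.3% and 16.2% over all genes and medians of -1.32 and -0.19. With DESeq2 the split was 3 higher and 19 lower, and 20 calls were shared. The low-collagen set had none higher and 22 lower, with 14.3% and 14.9% over all genes and medians of -0.99 and -0.10.
All 8 HoxB genes fell in both sets. Hoxb9 had 81.9 and 65.4 CPM in the progenitors, 10.6 and 5.28 CPM in the Foxd1 stroma and 7.87 and 3.43 CPM in the low-collagen set (-3.88 ± 0.40, adjusted p = 6.5e-08). The HoxB medians were -2.94 in the Foxd1 stroma and -2.37 in the low-collagen set, and those of HoxC -1.59 and -1.37. Hoxc10 had 63.4 and 46.2 CPM in the Foxd1 stroma (-1.82 ± 0.28) and 91.3 and 77.5 CPM in the low-collagen set (-1.19 ± 0.23).
The higher call was Hoxd9, at 63.4 and 88.5 CPM in the Foxd1 stroma (0.80 ± 0.19, adjusted p = 0.0019), and it was not called in the low-collagen set (0.25 ± 0.17, adjusted p = 0.30). Hoxc11 fell in the Foxd1 stroma on 6 and 2 UMIs there (-1.96 ± 0.42), while in the low-collagen set it stood at 22.8 and 24.4 CPM, a difference of 0.01 ± 0.22. Hoxd11 was not called in either set, with 0.18 ± 0.30 and -0.71 ± 0.29.

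Between Penk and Foxd1 stroma, Hoxa10 alone of 31 members was called, higher at 1.17 ± 0.27 (adjusted p = 0.03). Of all genes, 0.616% were higher and 0.568% lower, and the medians were -0.07 for the members and 0.05 for all. Hoxa10 was not called with no replicate block, without TMM factors or at 10000 UMIs per barcode. Against the low-collagen set, 4 members were higher and 4 lower in the Penk stroma, with 6.44% and 4.93% over all genes and medians of -0.11 and 0.02. The higher genes were of groups 10 and 11: Hoxd10 by 2.13 ± 0.27 (adjusted p = 7.3e-06), Hoxa11 by 1.47 ± 0.28, Hoxd11 by 1.32 ± 0.29 and Hoxa10 by 1.28 ± 0.23. Hoxd10 had 79.8 and 126 CPM in the Penk stroma and 22.8 and 24.7 CPM in the low-collagen set, without overlap. The lower genes were Hoxb2, Hoxc11, Hoxb7 and Hoxb6, from -1.35 ± 0.28 for Hoxb2 to -0.66 ± 0.19 for Hoxb6.

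Mural cells, the smooth muscle and pericytes of the vessels, differed from the Foxd1 stroma in 6 members, 2 higher and 4 lower, where 4.47% of all genes were higher and 3.92% lower and the medians were -0.39 and 0.09. Hoxb4 and Hoxb2 rose, the latter from 19.4 and 14.5 CPM to 62.3 and 33.8 CPM (1.52 ± 0.33, adjusted p = 0.0049). Hoxd10, Hoxd11, Hoxc4 and Hoxc6 fell, with -1.86 ± 0.31 for Hoxd10 and -1.54 ± 0.31 for Hoxd11. Against the low-collagen set none of the 6 was called and 3 others, Hoxa3, Hoxa7 and Hoxc11, fell, with 8.0% of all genes higher and 4.55% lower. The looser gate gave 3 calls, 1 higher and 2 lower.

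Endothelial cells, which line the vessels, had Hoxa7 as their highest member, at 65.7 and 58 CPM, followed by Hoxb7 at 46.3 and 43.7 CPM. Against the Foxd1 stroma 7 members were higher and 15 lower of 31, with 15.7% and 11.8% over all genes and medians of -1.08 and 0.19. Without TMM factors the split was 4 higher and 15 lower, and against the low-collagen set it was 4 and 17, with 20.9% and 15.8% over all genes. All 7 HoxC genes fell, with log2 differences from -4.73 to -3.14, together with Hoxd11 at 5.88 and 4.19 CPM (-5.53 ± 0.37, adjusted p = 1.1e-10) and Hoxa11 at 1.02 and 1.43 CPM (-4.81 ± 0.47). Endothelial Hoxd11 lay below the macrophage level given above, and Hoxa11 had its lowest mean level in the endothelium. These levels, like those of HoxC there, are not read as expression, so the sizes of these falls depend on the background. Hoxb8 rose to 28.5 and 27.7 CPM from 7.04 and 2.64 CPM (2.68 ± 0.51, adjusted p = 3.3e-04), on 4 and 2 UMIs in the Foxd1 stroma, and Hoxb7 to 46.3 and 43.7 CPM from 17.6 and 9.25 CPM (1.86 ± 0.33). Hoxa7 rose by 1.10 ± 0.21.

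Because gates differ in depth, each barcode was also thinned to 3000 UMIs. A Hox UMI was then present in 100% and 99.7% of nephron progenitor barcodes and in 100% and 100% of ureteric tip barcodes. The share was 76.9% and 80.5% in the proximal tubule and 74.8% and 74.5% in the endothelium, and 26% and 21.4% in macrophages, the background. Before thinning the macrophage shares were 42.7% and 46.4%, at median depths of 10181.5 and 11284 UMIs per barcode. A HoxC UMI was found in 66.3% and 68% of podocytes but in 3.53% and 1.16% of endothelial and 6.25% and 3.38% of collecting duct barcodes, against 2.67% and 5.95% of macrophages. In the smaller of those endothelial shares the exact 95% interval was 0.466% to 2.37%, which covers counting error only. With doublets removed, the HoxC shares were 4.58% and 2.90% in the collecting duct, 2.78% and 0.678% in the endothelium and 1.47% and 2.78% in macrophages. The macrophage background thus varied with the treatment of doublets. A HoxB UMI was found in 86.1% and 81.1% of collecting duct and 22.1% and 22.1% of podocyte barcodes. The ratio of HoxB to HoxC shares was thus high in the collecting duct and low in podocytes.

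Genes of a cluster resembled each other across gates more than paralogues did. Likeness was the Spearman correlation of log2(CPM + 1) over the 16 gates, which share libraries, depth and free RNA, and is given as a description. Its median was 0.85 over the 106 pairs in the same cluster and 0.91 over the 27 pairs of neighbours. It was 0.26 over the 32 pairs in the same paralogue group and 0.19 over the 327 pairs that share neither. In each library alone the same-cluster median was 0.82 and 0.83, and that of paralogues 0.21 and 0.29. HoxB (0.91) and HoxC (0.91) were the most uniform, HoxA had 0.77 and HoxD 0.52.
Blocks within HoxD were chosen after these values were seen. Hoxd3, Hoxd4, Hoxd8 and Hoxd9 had a median of 0.87 among themselves and 0.66 with HoxB, but -0.16 with HoxC. Hoxd10 and Hoxd11 had 0.92 with each other, 0.65 with HoxA and 0.49 with HoxC, but 0.05 with HoxB. With Hoxd3 to Hoxd9 they had 0.50, from 0.39 to 0.70 over 8 pairs, a value like that with HoxC. Hoxd12 went with neither block, at 0.21 with Hoxd10 and Hoxd11 and -0.04 with Hoxd3 to Hoxd9. Its median was 0.60 with HoxA, 0.50 with HoxC and 0.24 with HoxB. HoxB and HoxC themselves had a median of -0.31 over 56 pairs, and HoxA and HoxC had 0.70 over 63. Exons of Hoxc5 and Hoxc10 share 166 bases on the same strand, so their counts may not be wholly separate.

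**Figure D5:**
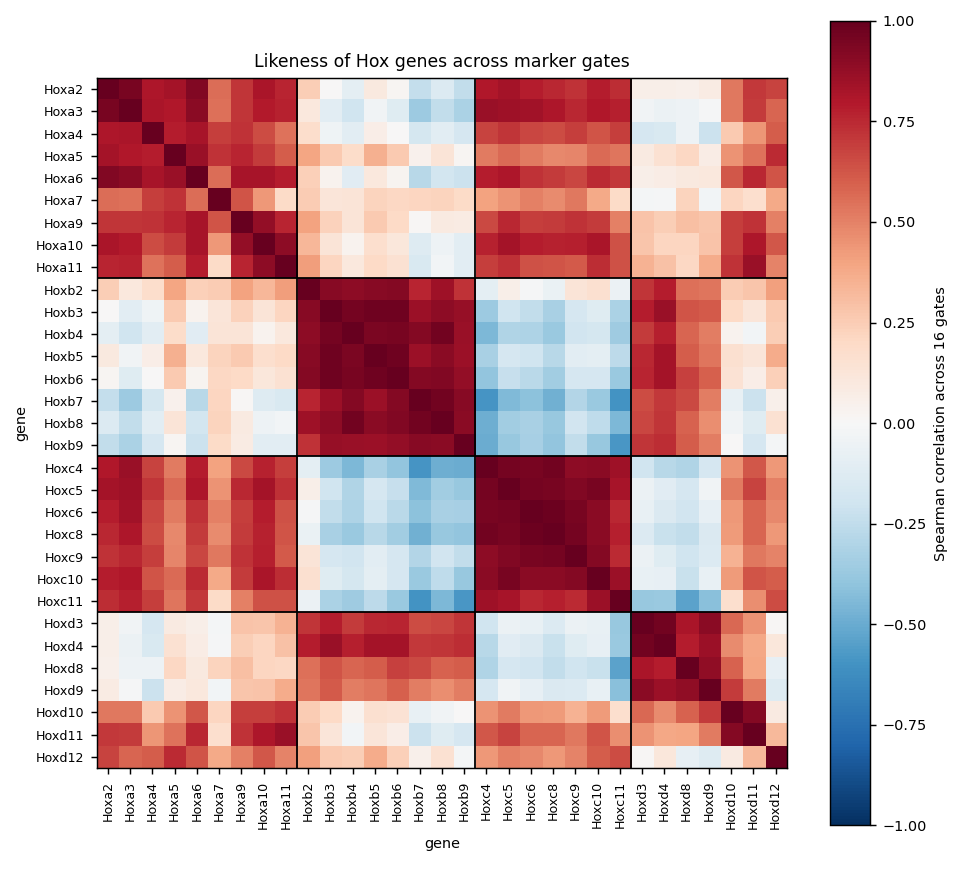
Spearman correlation (colour, from -1 to 1) of each pair of the 31 tested Hox genes over the mean log2(CPM + 1) of 16 gates, with black lines between clusters. HoxB and HoxC form even red blocks, HoxA and HoxC resemble each other, and Hoxd3 to Hoxd9 are closer to HoxB than Hoxd10 and Hoxd11 are. Hoxd12 goes with neither part of HoxD.

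Hox proteins bind DNA together with TALE homeodomain partners of the Pbx, Meis and Pknox families, and 11 such genes were measured from a fixed list. In the collecting duct against the progenitors none rose and 8 fell, where 25.7% of all genes rose and 24.6% fell, with medians of -0.96 for the list and -0.03 for all genes. In the proximal tubule none rose and 9 fell, where 31.2% rose and 31.2% fell among all genes, with medians of -2.06 and -0.05. Meis2 had 1442 and 1544 CPM in the progenitors, 23.4 and 42 CPM in the collecting duct (-5.51 ± 0.43, adjusted p = 3.4e-10) and 51.4 and 36 CPM in the proximal tubule. The ureteric tip had 42.3 and 29.7 CPM of Meis2 and 18.5 and 9.5 CPM of Meis1. In podocytes 2 of 11 rose and 7 fell, beside 23.4% and 26.1% of all genes. Pknox2 rose from 30.5 and 47.5 CPM to 199.9 and 228 CPM (2.50 ± 0.25). In the low-collagen Foxd1 stroma against the progenitors 2 rose and 3 fell, beside 14.3% and 14.9% of all genes, and Meis1 rose from 111 and 163 CPM to 1045 and 1360.2 CPM (3.13 ± 0.35, adjusted p = 2.1e-07). In the endothelium against the Foxd1 stroma 2 rose and 4 fell, beside 15.7% and 11.8% of all genes. In the loop against the proximal tubule 4 rose and 1 fell, beside 21.1% and 20%. In the tip against the collecting duct 4 rose and none fell, beside 14.7% and 15.7%. In the Foxd1 stroma against the progenitors 4 rose and 3 fell, beside 15.3% and 16.2%. In the mural gate against the Foxd1 stroma none rose and 2 fell, beside 4.47% and 3.92%, and between Penk and Foxd1 stroma none was called, beside 0.616% and 0.568%.

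Of a list of 19 chromatin regulators known to act on Hox clusters, mostly of the Trithorax and Polycomb kind, all were tested. In the collecting duct against the progenitors 3 rose and 7 fell, where 25.7% of all genes rose and 24.6% fell. In the proximal tubule none rose and 9 fell, beside 31.2% and 31.2% of all genes. In podocytes 3 rose and 4 fell, both shares below those of all genes, 23.4% and 26.1%. Ezh2, the methyltransferase of Polycomb complex PRC2, fell in all 3, by -1.77 ± 0.17, -2.06 ± 0.17 and -2.42 ± 0.17 as signed log2 differences. Of a list of 11 upstream and neighbouring regulators 4 were tested, and in the collecting duct against the progenitors 2 rose (Gata3 and Pax8) and 1 fell (Osr1), beside the same 25.7% and 24.6% of all genes, too few members to read against that background. Gata3, a regulator of the ureteric lineage, had 688 and 419 CPM in the collecting duct and 2.54 and 2.99 CPM in the progenitors (7.60 ± 0.48). Pax8 had 233 and 193 CPM and 72.7 and 72.3 CPM (1.52 ± 0.37), and Osr1 had 0.184 and 0 CPM and 62.4 and 34.8 CPM, in the same order. The remaining one tested, Pax2, was not called (-0.71 ± 0.35, adjusted p = 0.095).

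Of 9 noncoding genes of the clusters, 6 were tested, and in the collecting duct against the progenitors 1 rose (Hoxd3os1) and 3 fell (Hotairm1, Hoxaas3 and Hoxa11os), where 25.7% of all genes rose and 24.6% fell. In podocytes Hotairm1, a noncoding gene of the HoxA cluster, rose from 4.19 and 9.23 CPM to 33.4 and 48 CPM (2.64 ± 0.28, adjusted p = 7.3e-08) while Hoxa2 and Hoxa3 fell. In the proximal tubule Hoxb3os rose from 12.1 and 8.1 CPM to 79.2 and 73 CPM (3.14 ± 0.19, adjusted p = 4.4e-12) while Hoxb2 and Hoxb3 fell. Hoxb3os overlaps exons of Hoxb3 by 2250 bases and of Hoxb2 by 953 on the other strand. The sources used here do not give the strand setting of the counting, so reads of these genes may not be separable. Hoxa11os, which overlaps Hoxa11 by 800 bases, fell with it in podocytes (-3.83 ± 0.32) and in the proximal tubule (-2.78 ± 0.27).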

How the data were processed

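The deposited files hold raw UMI counts per gene and barcode of 10x Genomics 3′ libraries of 2 P0 kidney samples of 1 genotype. Per the submitters' processing notes, Cell Ranger 6.0.1 was used with mm10, while the file headers name version 4. Whether all barcodes were meant to be cells is not given in the sources used here. The 2 files list 2761081 and 2545815 barcodes with 200331687 and 173166168 UMIs. Barcodes with at least 3000 UMIs, 500 genes and at most 20% mitochondrial UMIs were kept, and doublets were not removed, except in an alternative.

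A gate took the type with the highest marker score, the mean over its markers of UMIs per 10000 relative to the library mean, each capped at 10, where the score was at least 2, at least 1.5 times the next, and 2 markers were detected. These thresholds were set on marker levels alone, and 1609 and 1149 barcodes stayed ungated. Counts were summed per gate and library where at least 20 barcodes were present, and tested with edgeR 4.0.16 (TMM, filterByExpr, quasi-likelihood, 32 sums, 15 residual degrees of freedom) in R 4.3.3, leaving 93 gate markers out of the adjustment. The same library supplies both gates of a comparison, which is the source of the library block. Fits were tested on simulated counts. CPM were computed here, with no length correction. Fixed lists were TALE partners, chromatin regulators, upstream genes and noncoding genes of the clusters. Named in each comparison were the called members with the largest fold changes, at most 10 in each direction, and others were chosen after their values were seen. Values of some single genes are not reported here. The members and lists were chosen with earlier results of these data known. Alternatives were the low-count filter, scaling, DESeq2 1.42.0, the block, the gates in the fit, depth, Scrublet doublets, stricter and looser gates, the low-collagen set and each library alone.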

Additional observations from a re-analysis of the deposited data

How the results depend on the processing

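Of 1077 alternative values for 98 named gene differences, 1026 counted as unchanged, 50 kept their direction but were no longer called, and 1 reversed. Unchanged values kept their direction and their side of the threshold, except those of a single library. The 98 values without replicate 1 and the 98 without replicate 2 have no p-value and were judged by direction only. The reversed one was Hoxc11 in the Foxd1 stroma against the progenitors, with a log2 difference of 0.0064 (adjusted p = 1, edgeR) with the low-collagen set, and the cause was not tested. With no replicate block, the ureteric tip against collecting duct gave 7 calls in place of 13. The Penk against Foxd1 stroma comparison, with 1 call, gave 0 without TMM factors, with no replicate block and at 10000 UMIs per barcode, 2 with no low-count filter, DESeq2, only the 2 gates compared or the looser gate, and 8 with the low-collagen set. Mural against Foxd1 stroma gave 3 in place of 6 with the looser gate, and 3 with the low-collagen set. The thinned share of barcodes with a Hox UMI, taken as the median over the gates of each library and averaged over both libraries, was 93.6% with the stricter gate, against 95.5%, and the likeness within clusters was 0.83 at 10000 UMIs per barcode, against 0.85. The cause of these changes was not tested. In either library alone, every called member kept its direction. The calls were made on these same libraries, so that agreement was largely fixed by them and is no separate check. Without 1 replicate the median summed Hox level over the gates ranged from 1265 to 1305 CPM and the median share from 94.5% to 96.6%. The stricter gate left under 20 barcodes of Foxd1 stroma per library, so its 4 comparisons were not run with it. DESeq2 scaling moved the median of all genes by 0.22 in the Foxd1 stroma against progenitors and by -0.22 in the endothelium against Foxd1 stroma, and leaving out TMM factors moved it by -0.22 in the proximal tubule against progenitors and by 0.12 in the loop of Henle against proximal tubule. With 50 and 56 barcodes, the Foxd1 stroma has the fewest UMIs of the kidney gates compared.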
